A study of Homo sapiens with 9 samples.

Results

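H2AFX and the other genes that cells use to find and mend DNA double-strand breaks were followed in Huh7 cells after knockdown of the histone demethylase KDM4C. They are 43 genes of the 32906 listed in the data, taken by symbol, and all 43 symbols were found. The list was drawn up with earlier results of these data known, so its shares are descriptions. RNA-seq had been run on cells labelled Huh7, a human hepatocellular carcinoma line, 48 h after transfection with Scramble (a control siRNA), Si-KDM4C#1 or Si-KDM4C#2. Each of the 3 groups has 3 libraries, 9 in all. No library label names irradiation, so the levels are those of cells with no stated DNA damage treatment. All groups come from 1 cell line, and mRNA was measured, not protein or repair.

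A double-strand break is sensed by the MRE11, RAD50 and NBN complex and by the Ku heterodimer. The kinases ATM, ATR and PRKDC then phosphorylate histone H2AX, the product of H2AFX, in the chromatin around the break. MDC1 binds this mark and brings the ubiquitin ligases RNF8 and RNF168, on whose ubiquitin marks TP53BP1, RIF1 and the BRCA1 complexes gather. Broken ends are either joined directly (Ku, PRKDC, DCLRE1C, XRCC4 and LIG4) or cut back by RBBP8, MRE11, EXO1 and BLM for homologous recombination. Recombination needs BRCA2, PALB2 and paralog complexes that hold RAD51C, and POLQ joins resected ends at short homologies.

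KDM4C itself was lower with both siRNAs, by log2 fold changes of -1.41 (Si-KDM4C#1) and -2.15 (Si-KDM4C#2). Levels are FPKM (fragments scaled by exon length and library depth), and every fold change is a log2 difference of FPKM + 1, which understates the change of weakly expressed genes. A gene is said to have risen or fallen where limma-trend gave an FDR under 0.05 (Benjamini-Hochberg adjustment over 14363 genes). It is called where the fold change of FPKM + 1 was also over 2. The study names these limits too, but the added 1 makes the rule here stricter, most of all for weakly expressed genes. With Si-KDM4C#1 the ratio of mean FPKM was 2.58 for XRCC4, 2.09 for RAD51D, 0.411 for BRCA2 and 0.498 for TOPBP1, all uncalled. For LIG4 with Si-KDM4C#2 it was 0.428, also uncalled. The depth recovered from the values was 14597504 to 18058556 fragments per library. All 9 listed genes of the 12 hepatocyte markers (AFP and HNF4A among them) stayed under 1 FPKM in every library. Their summed level was 0.236 to 0.261 FPKM in Scramble, 0.0347 to 0.149 after Si-KDM4C#1 and 0.185 to 0.433 with Si-KDM4C#2. These markers thus did not bear out a hepatocyte identity, and the name Huh7 rests on the labels alone. Nothing in the labels says whether the libraries of a group came from separate cultures, and the p-values measure the spread between these libraries.

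The promoter sequence of H2AFX is shown because this gene had the largest rise of the members with Si-KDM4C#2, and that of BLM as a repair gene that rose with both siRNAs. Those of RAD51C and RBBP8 are shown because these genes moved with Si-KDM4C#1 and had the largest differences between the siRNAs. Each is the 250 bases before the RefSeq start of the gene, 5' to 3' on the strand of the gene, in the build GRCh38.p14. They lie at chr11:119095466-119095715 on the minus strand (H2AFX), chr15:90717096-90717345 on the plus strand (BLM), chr17:58692323-58692572 on the plus strand (RAD51C) and chr18:22933078-22933327 on the plus strand (RBBP8, here within the longer gene span of GENCODE). Capitals mark the letters CCAAT, the box that the factor NF-Y reads, and TTTGAA, a form of the CHR element of cell cycle genes, on either strand (ATTGG and TTCAAA where they are on the other strand).
H2AFX: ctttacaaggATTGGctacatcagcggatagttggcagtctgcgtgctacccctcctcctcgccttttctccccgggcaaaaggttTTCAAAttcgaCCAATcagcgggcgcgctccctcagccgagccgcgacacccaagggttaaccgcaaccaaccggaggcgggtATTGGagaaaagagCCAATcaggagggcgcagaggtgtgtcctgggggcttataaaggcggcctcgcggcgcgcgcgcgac
BLM: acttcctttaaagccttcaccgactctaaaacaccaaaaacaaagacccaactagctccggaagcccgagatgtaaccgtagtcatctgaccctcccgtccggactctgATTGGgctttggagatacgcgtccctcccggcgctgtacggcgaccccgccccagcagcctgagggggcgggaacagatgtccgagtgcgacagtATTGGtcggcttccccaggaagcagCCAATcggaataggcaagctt
RAD51C: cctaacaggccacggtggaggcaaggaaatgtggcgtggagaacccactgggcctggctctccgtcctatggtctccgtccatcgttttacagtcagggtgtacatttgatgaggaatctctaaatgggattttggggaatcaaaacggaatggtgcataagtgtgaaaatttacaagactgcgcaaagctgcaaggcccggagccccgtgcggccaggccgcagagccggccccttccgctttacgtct
RBBP8: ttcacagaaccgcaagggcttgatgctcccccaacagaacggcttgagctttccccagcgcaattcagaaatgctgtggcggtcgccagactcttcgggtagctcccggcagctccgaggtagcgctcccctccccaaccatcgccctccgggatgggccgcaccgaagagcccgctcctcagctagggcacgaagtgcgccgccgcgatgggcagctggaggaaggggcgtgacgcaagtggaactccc

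The H2AFX window held CCAAT at 4 places and TTTGAA at 1, the BLM window held CCAAT at 3 places, and the RAD51C and RBBP8 windows held neither word. RefSeq windows were matched for 37 of the 43 members (55 windows, since some genes have several starts, whose windows can overlap). CCAAT stood in 26 of these 55 windows (47.3%), against 32.0% of all 35116 windows of the same length. TTTGAA stood in 5 (9.09%, against 13.3% of all windows), and the E2F words TTTCCCGC, TTTCGCGC, TTTGCCGC and TTTGGCGC stood in 1 (1.82%, against 2.79%). These are letter matches and not sites shown to be bound.

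Of the 43 members, 40 passed the filter, which asked for a group mean of 1 FPKM or more in any group. With Si-KDM4C#1, 0 members were called higher and 2 were called lower (RBBP8 and LIG4), where 4.04% and 4.83% of all genes tested were called higher and lower. With Si-KDM4C#2, 1 member was called higher (H2AFX) and 0 lower, where the shares of all genes were 2.6% and 2.3%. Without the fold limit, 19 members rose with Si-KDM4C#1 (47.5% of the 40, against 31.7% of all genes) and 13 fell (32.5%, against 33.9%), 80.0% in all against 65.7%. With Si-KDM4C#2, 18 rose (45.0%, against 34.4%) and 7 fell (17.5%, against 25.0%), 62.5% in all against 59.4%. Between the siRNAs, 16 members were higher with Si-KDM4C#2 (40.0%, against 35.9%) and 6 lower (15.0%, against 26.5%), 55.0% in all against 62.4%. The libraries did not overlap for 19 members that were higher and 15 that were lower with Si-KDM4C#1 than with Scramble, beside 33.5% and 36.0% of all genes. For Si-KDM4C#2 against Scramble these were 22 and 7 members (37.3% and 27.9% of all genes), and for Si-KDM4C#2 against Si-KDM4C#1 21 and 9 (40.0% and 29.3%). Most genes of these cells passed this test, so a change of a single member is set against that background.

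The median log2 fold change of the members was 0.08 after Si-KDM4C#1, 0.10 after Si-KDM4C#2 and 0.15 between Si-KDM4C#2 and Si-KDM4C#1. Over all genes tested it was -0.03, 0.06 and 0.08. Single members spread far more widely than these medians differ, from -1.67 (RBBP8) to 0.91 (XRCC4) with Si-KDM4C#1 and from -0.96 (LIG4) to 1.43 (H2AFX) with Si-KDM4C#2. Repair genes thus moved in both directions with each siRNA.

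**Figure D1:**
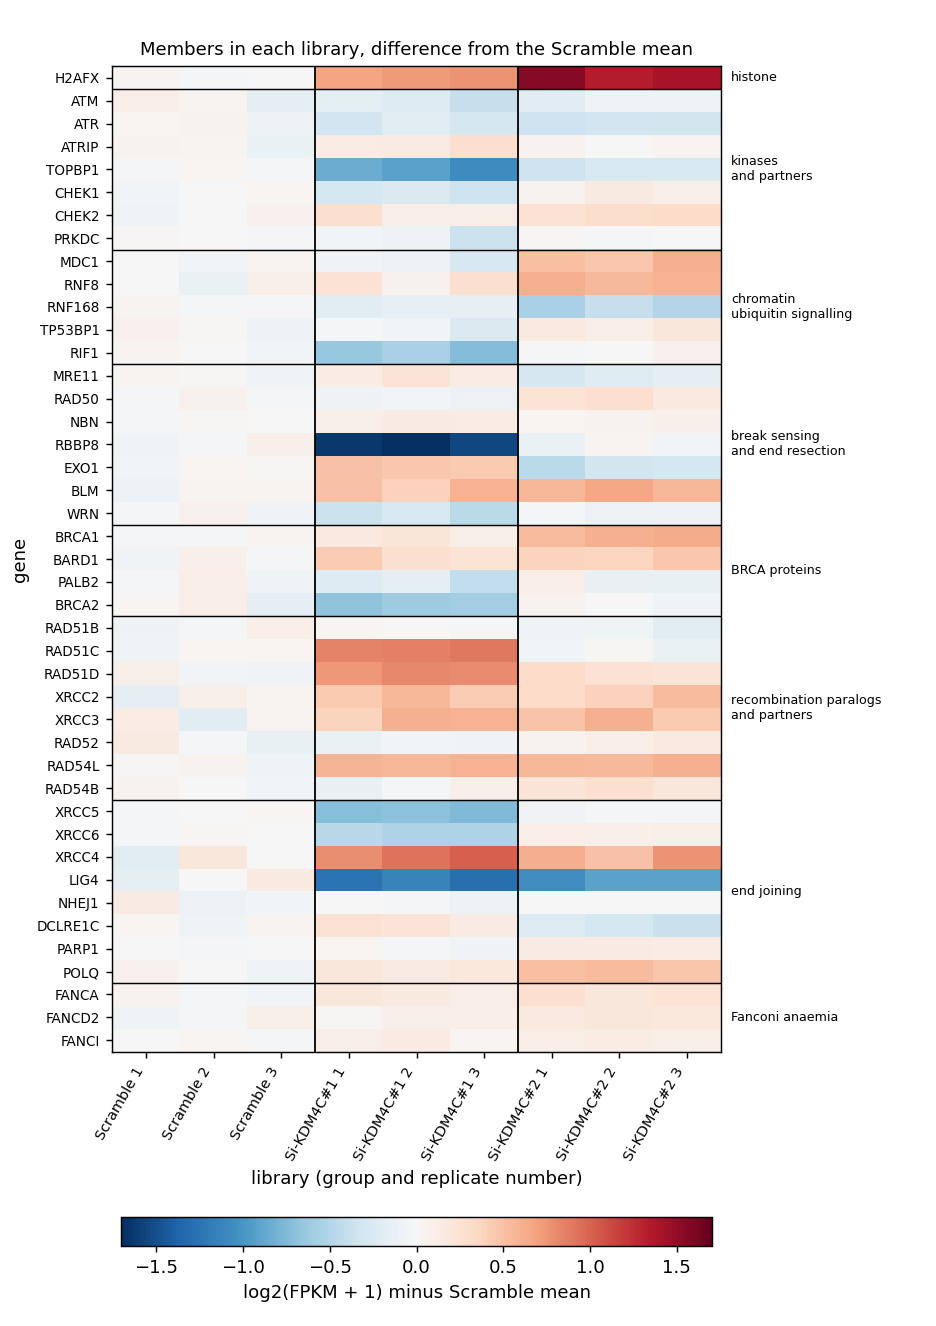
All 43 members (rows, grouped by role) in the 9 libraries (columns), coloured by log2(FPKM + 1) minus the mean of the 3 Scramble libraries. H2AFX is higher in all 6 knockdown libraries and LIG4 is lower in them, whereas RBBP8 is low in the Si-KDM4C#1 libraries and near the Scramble level with Si-KDM4C#2.

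Both siRNAs share the Scramble libraries, so their results are given side by side and not as independent evidence. With both, 13 members rose (H2AFX, CHEK2, RNF8, BLM, BRCA1, BARD1, RAD51D, XRCC2, XRCC3, RAD54L, XRCC4, POLQ and FANCA), where 19.4% of all genes tested rose with both. ATR, TOPBP1, RNF168 and LIG4 (4 members) fell with both, against 15.2% of all genes. The siRNAs moved 4 members in opposite directions, since MRE11, EXO1 and DCLRE1C rose with Si-KDM4C#1 but fell with Si-KDM4C#2 and XRCC6 did the reverse, against 9.77% of all genes. Several of these changes lost the test with a siRNA under an alternative. This held for CHEK2, RNF8, RAD51D, POLQ and FANCA, for ATR and RNF168, and for MRE11, DCLRE1C and XRCC6. TP53BP1, RAD52, RAD54B and PRKDC passed the test with neither, though alternatives gave a pass to PRKDC with Si-KDM4C#1 (quantile normalization), to RAD54B with both and to TP53BP1 with Si-KDM4C#2 (GC adjustment).

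**Figure D2:**
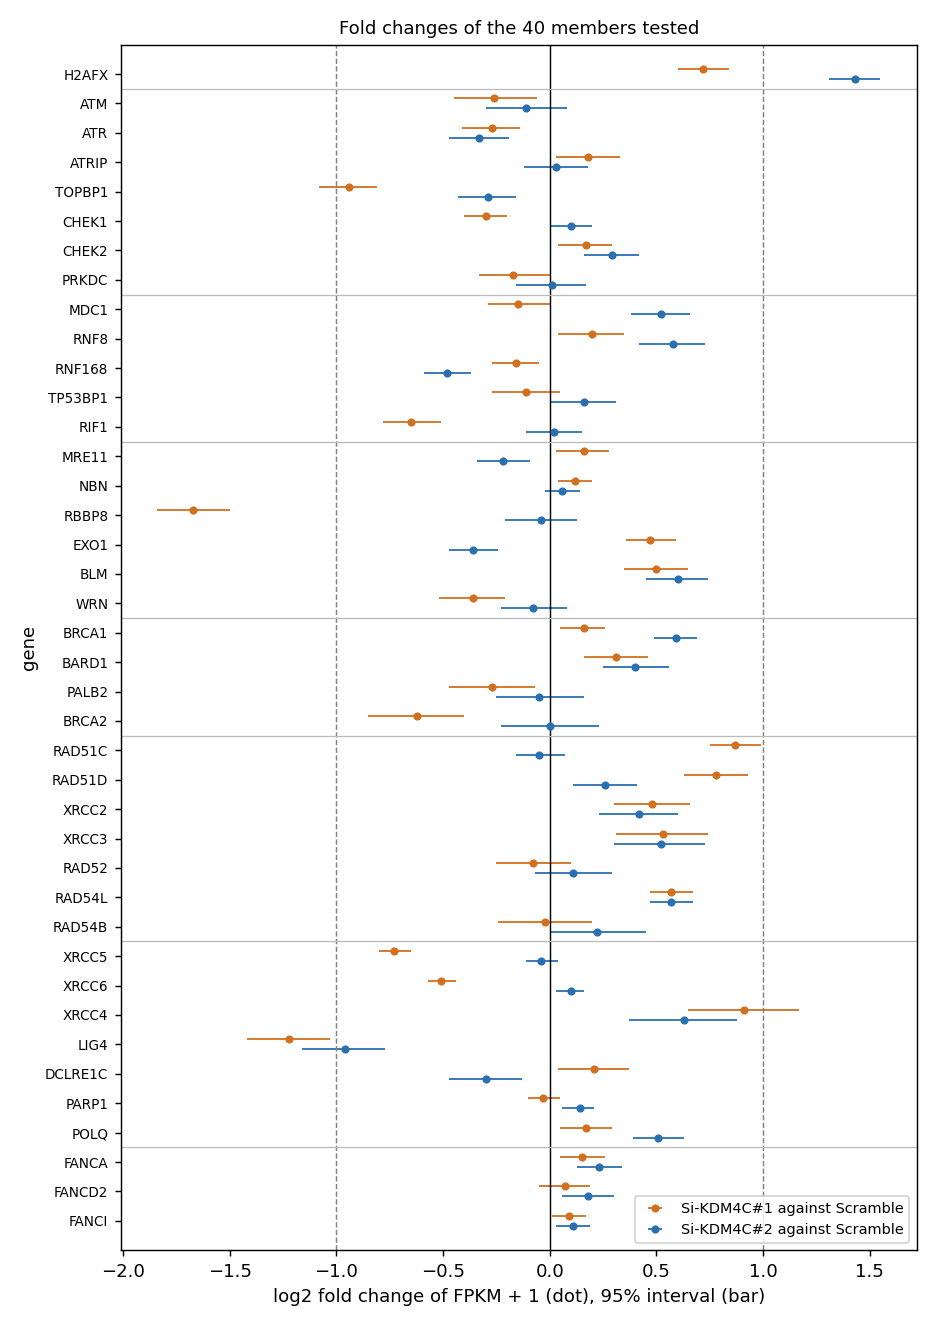
Log2 fold change of FPKM + 1 against Scramble (x axis) for the 40 members tested (y axis, grouped by role), with Si-KDM4C#1 in orange and Si-KDM4C#2 in blue. Dots are estimates of limma-trend, bars their 95% intervals, and dashed lines the 2-fold limits, beyond which lie RBBP8 and LIG4 with Si-KDM4C#1 and H2AFX with Si-KDM4C#2.

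H2AFX (ENSG00000188486) is a gene of 1 exon on chromosome 11 (bases 119093854 to 119095467 of GRCh38, minus strand) and shares no exon base with another annotated gene. Its mRNA was at 46.3, 43.7 and 44.4 FPKM in the Scramble libraries. It stood at 72.0, 74.5 and 76.7 FPKM with Si-KDM4C#1 and at 133, 115 and 120 FPKM with Si-KDM4C#2. The 3 groups did not overlap, and the order was Scramble, Si-KDM4C#1, Si-KDM4C#2. The means were 44.8 ± 1.34, 74.4 ± 2.34 and 123 ± 9.02 FPKM (SD, n = 3). Thus H2AFX rose with Si-KDM4C#1 (log2 fold change 0.72, standard error 0.053, adjusted p = 1.8e-06) and rose further with Si-KDM4C#2 (1.43, standard error 0.053, adjusted p = 6.35e-08). The difference between the siRNAs was 0.71 (adjusted p = 2.53e-06). These values rest on 3477, 5845 and 9509 recovered fragments per group.

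The exons of H2AFX are 66.8% G and C, the highest share among the 43 members. An adjustment of the libraries for GC content, added with the data already seen, gave log2 fold changes of H2AFX of 0.37 (adjusted p = 0.000115) and 1.00 (adjusted p = 3.21e-07), the latter just under the fold limit. H2AFX makes both a polyadenylated mRNA and a short replication-type mRNA, and FPKM of the gene does not separate them. Of the other H2A variant genes 4 were tested. H2AFJ rose with both siRNAs (log2 fold changes 1.15 and 1.38) and was called with both. H2AFZ, a variant found at promoters, also rose with both (0.36 and 0.59), as did H2AFY, the macroH2A gene (0.22 and 0.16). H2AFV, the near relative of H2AFZ, fell with Si-KDM4C#1 (-0.64) and stood at -0.04 with Si-KDM4C#2 (adjusted p = 0.429).

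Among the kinases and their partners, TOPBP1 moved most with Si-KDM4C#1, and ATR with Si-KDM4C#2. TOPBP1 is the scaffold that activates ATR. It was at 20.2, 20.9 and 20.1 FPKM with Scramble, 10.9, 10.4 and 9.18 FPKM with Si-KDM4C#1 and 15.8, 16.9 and 16.8 FPKM with Si-KDM4C#2. No groups overlapped, and the lowest level was with Si-KDM4C#1. TOPBP1 fell by a log2 fold change of -0.94 (standard error 0.059, adjusted p = 6.39e-07) and -0.29 (adjusted p = 0.00203), and it differed between the siRNAs by 0.65 (adjusted p = 9.4e-06). ATR also fell with both (-0.27 and -0.33), while its partner ATRIP rose with Si-KDM4C#1 (0.18, adjusted p = 0.0338) and stood at 0.03 with Si-KDM4C#2. CHEK1, the kinase downstream of ATR, fell with Si-KDM4C#1 (-0.30) and stood at 0.10 with Si-KDM4C#2 (adjusted p = 0.0843). ATM fell with Si-KDM4C#1 (-0.26, adjusted p = 0.0248) and stood at -0.11 with Si-KDM4C#2. CHEK2, downstream of ATM, rose with both (0.17 and 0.29). PRKDC, the most abundant mRNA of this group at 52.8 to 69.6 FPKM, passed the test with neither siRNA. In all, 2 of the 7 rose and 4 fell with Si-KDM4C#1 (31.7% and 33.9% of all genes did), and 1 rose and 2 fell with Si-KDM4C#2 (34.4% and 25.0%). Of the changes with Si-KDM4C#1, only that of TOPBP1 passed the test under every alternative. With the GC adjustment ATM (0.02), CHEK1 (-0.09), ATRIP (0.06) and ATR lost it, and CHEK2 lost it with quantile normalization.

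In the chromatin ubiquitin group, the 2 ligases moved apart. RNF8, which writes the first ubiquitin mark, rose with both siRNAs (log2 fold changes 0.20 and 0.58). RNF168, which extends that mark on H2A histones, was at 12.5, 11.8 and 11.8 FPKM with Scramble. It was at 10.4, 10.8 and 10.8 FPKM with Si-KDM4C#1 and at 7.92, 8.92 and 8.21 FPKM with Si-KDM4C#2. The 3 groups did not overlap, and Si-KDM4C#2 gave the lowest levels. The log2 fold changes of RNF168 were -0.16 (adjusted p = 0.0185) and -0.48 (adjusted p = 2.67e-05). MDC1, the reader of phosphorylated H2AX, rose with Si-KDM4C#2 (0.52) and stood at -0.15 with Si-KDM4C#1 (adjusted p = 0.0678). RIF1, which protects ends from resection together with TP53BP1, fell with Si-KDM4C#1 (-0.65) and stood at 0.02 with Si-KDM4C#2. TP53BP1 stood at -0.11 and 0.16. All 5 members of this group differed between the siRNAs, beside 62.4% of all genes. Of these, 4 were higher with Si-KDM4C#2, beside 35.9% of all genes. TP53BP1 lost this test with quantile normalization.

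RBBP8 (ENSG00000101773) gave the largest fall of all members. Its product CtIP starts end resection with MRE11. RBBP8 was at 11.9, 12.1 and 13.3 FPKM with Scramble, 3.30, 2.81 and 3.59 FPKM with Si-KDM4C#1 and 11.4, 12.8 and 12.0 FPKM with Si-KDM4C#2. The Si-KDM4C#1 libraries lay far below the rest, and those of Si-KDM4C#2 overlapped with Scramble. RBBP8 fell with Si-KDM4C#1 (log2 fold change -1.67, standard error 0.077, adjusted p = 1e-07) and stood at -0.04 with Si-KDM4C#2 (adjusted p = 0.659), and the siRNAs differed by 1.63 (adjusted p = 1.58e-07). RBBP8 was the 1 member called between the siRNAs in the higher direction (0 were called lower), where 4.41% of all genes were called higher and 2.49% lower. These levels rest on 3059, 806 and 2956 fragments per group.

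EXO1, the exonuclease of long-range resection, moved in opposite directions. It was at 14.1, 15.0 and 14.9 FPKM with Scramble, 21.2, 20.6 and 20.3 FPKM with Si-KDM4C#1 and 10.4, 11.6 and 11.7 FPKM with Si-KDM4C#2. No groups overlapped. EXO1 rose with Si-KDM4C#1 (log2 fold change 0.47, adjusted p = 2.27e-05), fell with Si-KDM4C#2 (-0.36, adjusted p = 0.000217) and differed between the siRNAs by -0.83 (adjusted p = 7.03e-07). BLM, a helicase that works with EXO1, was at 4.29, 4.85 and 4.85 FPKM with Scramble. It was at 7.01, 6.44 and 7.55 FPKM with Si-KDM4C#1 and at 7.38, 7.89 and 7.39 FPKM with Si-KDM4C#2. The knockdown groups overlapped with each other and lay above Scramble, with log2 fold changes of 0.50 (adjusted p = 0.0001) and 0.60 (adjusted p = 4.14e-05). The helicase gene WRN fell with Si-KDM4C#1 (-0.36) and stood at -0.08 with Si-KDM4C#2. MRE11 rose with Si-KDM4C#1 (0.16) and fell with Si-KDM4C#2 (-0.22), and NBN rose with Si-KDM4C#1 (0.12, adjusted p = 0.0164) and stood at 0.06 with Si-KDM4C#2.

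BRCA1 and its partner BARD1 rose with both siRNAs, and BRCA2 and its partner PALB2 fell with Si-KDM4C#1. The log2 fold changes of BRCA1 were 0.16 (adjusted p = 0.0126) and 0.59 (adjusted p = 4.17e-06), and those of BARD1 were 0.31 and 0.40. BRCA2 was at 1.49 ± 0.226 FPKM with Scramble and 1.48 ± 0.122 FPKM with Si-KDM4C#2, but at 0.612 ± 0.0544 FPKM with Si-KDM4C#1 (SD, n = 3). It fell with Si-KDM4C#1 (log2 fold change -0.62, adjusted p = 0.000407) and stood at 0.00 with Si-KDM4C#2 (adjusted p = 0.991). On the recovered fragments, where no 1 is added to the FPKM, the change of BRCA2 with Si-KDM4C#1 was -1.19, and with the GC adjustment it was -0.29 (adjusted p = 0.028, exon GC 36.3%). PALB2 stood at -0.27 (adjusted p = 0.0248 in limma-trend) and -0.05. Its fall with Si-KDM4C#1 was lost with quantile normalization, with no filter and with the GC adjustment (-0.08).

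The recombination paralogs and their partners held no member that fell with either siRNA: of 7 tested, 5 rose with Si-KDM4C#1 and 4 with Si-KDM4C#2, where 31.7% and 34.4% of all genes rose and 33.9% and 25.0% fell. RAD51C, a subunit of both paralog complexes, was at 6.24, 6.79 and 6.82 FPKM with Scramble, 12.7, 12.8 and 13.2 FPKM with Si-KDM4C#1 and 6.35, 6.75 and 6.02 FPKM with Si-KDM4C#2. Only the Si-KDM4C#1 libraries were apart from the other groups. RAD51C rose with Si-KDM4C#1 (log2 fold change 0.87, standard error 0.052, adjusted p = 4.7e-07) and stood at -0.05 with Si-KDM4C#2 (adjusted p = 0.452). The difference between them was -0.92 (adjusted p = 4.6e-07). RAD51C was past the fold limit with Si-KDM4C#1 on recovered fragments (1.04) and with the GC adjustment (1.07). RAD51D, which binds RAD51C in 1 of these complexes, was at 2.15, 1.86 and 1.84 FPKM with Scramble, 3.89, 4.17 and 4.15 FPKM with Si-KDM4C#1 and 2.65, 2.49 and 2.43 FPKM with Si-KDM4C#2. Its groups did not overlap, and its log2 fold changes were 0.78 (adjusted p = 4.59e-06) and 0.26 (adjusted p = 0.00759). On recovered fragments the former was 1.14, and with the GC adjustment the latter was 0.15 (adjusted p = 0.0584). RAD54L, a motor protein of recombination, rose by 0.57 with each siRNA, and XRCC2 rose by 0.48 and 0.42. RAD52 stood at -0.08 and 0.11 and RAD54B at -0.02 and 0.22, without passing the test.

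End joining genes split. XRCC5 and XRCC6, which encode the Ku subunits, are among the most abundant members. XRCC5 was at 60.5, 61.5 and 63.4 FPKM with Scramble, 36.9, 37.8 and 36.2 FPKM with Si-KDM4C#1 and 59.2, 60.1 and 61.1 FPKM with Si-KDM4C#2. The Si-KDM4C#1 libraries were lower than all others, and those of Si-KDM4C#2 overlapped with Scramble. XRCC5 fell with Si-KDM4C#1 (log2 fold change -0.73, standard error 0.033, adjusted p = 9.78e-08) and stood at -0.04 with Si-KDM4C#2 (adjusted p = 0.337), where quantile normalization gave -0.18 (adjusted p = 0.00109). XRCC6 was at 191 ± 2.83 FPKM with Scramble, 134 ± 2.37 FPKM after Si-KDM4C#1 and 204 ± 1.61 FPKM after Si-KDM4C#2 (SD, n = 3). It fell with Si-KDM4C#1 (-0.51, adjusted p = 3.59e-07). With Si-KDM4C#2 it stood at 0.10 (adjusted p = 0.0164), a rise that was lost with quantile normalization, on recovered fragments and with the GC adjustment.

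LIG4 and XRCC4, whose products form the ligase complex of end joining, moved apart. LIG4 (ENSG00000174405) was at 5.15, 5.85 and 6.56 FPKM with Scramble, 1.87, 2.11 and 1.82 FPKM with Si-KDM4C#1 and 2.28, 2.62 and 2.62 FPKM with Si-KDM4C#2. Every knockdown library lay under the lowest Scramble library. LIG4 fell by a log2 fold change of -1.22 (standard error 0.086, adjusted p = 1.4e-06) and -0.96 (standard error 0.086, adjusted p = 1.09e-05). With the GC adjustment the former was -0.88, and LIG4, with the lowest GC share of the members (35.7%), was no longer called. On recovered fragments the changes of LIG4 were -1.52 and -1.27, and it was called with both siRNAs. XRCC4 was at 0.941, 1.53 and 1.24 FPKM with Scramble, 2.86, 3.20 and 3.51 FPKM with Si-KDM4C#1 and 2.41, 2.14 and 2.78 FPKM with Si-KDM4C#2. Every knockdown library lay over the highest Scramble library. XRCC4 rose by 0.91 (standard error 0.115, adjusted p = 7.46e-05) and 0.63 (adjusted p = 0.00113), on 160, 414 and 316 fragments per group. Without the Scramble library of replicate 2, which had the highest XRCC4 level of its group, the change with Si-KDM4C#1 was 1.00 and XRCC4 was called. It was also called with quantile normalization (1.05), a pseudocount of 0.1 (1.32), the GC adjustment (1.24) and on recovered fragments (1.45).

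DCLRE1C, the Artemis nuclease gene, rose with Si-KDM4C#1 (0.21, adjusted p = 0.034) and fell with Si-KDM4C#2 (-0.30, adjusted p = 0.0063). POLQ rose with both (0.17 and 0.51), and PARP1, a sensor of strand breaks, rose with Si-KDM4C#2 (0.14) and stood at -0.03 with Si-KDM4C#1. The Fanconi anaemia genes FANCA, FANCD2 and FANCI, which act at DNA crosslinks, had small changes of 0.07 to 0.23. All 3 rose with Si-KDM4C#2, and FANCA rose with Si-KDM4C#1.

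**Figure D3:**
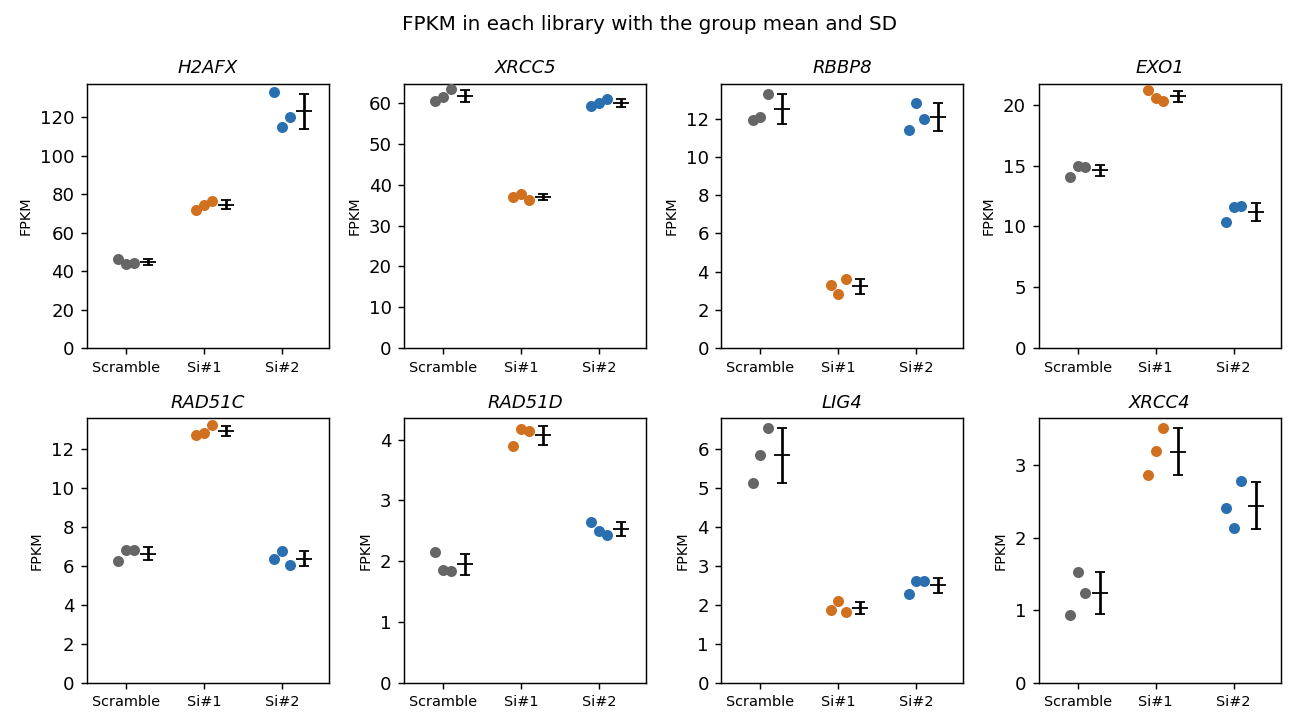
FPKM (y axis, from 0) in each library for 8 members, with Scramble in grey, Si-KDM4C#1 (Si#1) in orange and Si-KDM4C#2 (Si#2) in blue, and the group mean with its SD (n = 3) in black. XRCC5 and RBBP8 are low and RAD51C is high with Si-KDM4C#1 alone, EXO1 moves in opposite directions, and LIG4 and XRCC4 move apart with both siRNAs.

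Many of the smaller changes depend on the processing. Of 32 members that passed the test with Si-KDM4C#1, 18 did so under all 8 alternatives that tested them, and 14 did not (ATM, ATR, ATRIP, CHEK1, CHEK2, RNF8, RNF168, MRE11, NBN, WRN, PALB2, DCLRE1C, POLQ and FANCA). With Si-KDM4C#2, 18 of 25 did, without MRE11, RAD51D, XRCC6, PARP1, FANCA, FANCD2 and FANCI. Between the siRNAs 18 of 22 did, without TP53BP1, WRN, LIG4 and PARP1. Leaving out a library of the comparison lost the test for no members but those named here (with Si-KDM4C#1 by any of the 6 libraries, with Si-KDM4C#2 for FANCI by 5 of them and for XRCC6 by 1, and for LIG4 between the siRNAs by 4). No member passed the test in the other direction under these alternatives. Members that passed only under an alternative were PRKDC, MDC1, PARP1, RAD54B, FANCD2 and FANCI with Si-KDM4C#1, and ATM, CHEK1, TP53BP1, RIF1, NBN, RAD54B and XRCC5 with Si-KDM4C#2.

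RAD50, RAD51B and NHEJ1 did not pass the filter. RAD50, the partner of MRE11, was listed at 0.440 to 0.888 FPKM, RAD51B at 0.478 to 0.812 FPKM, and NHEJ1, an end joining factor, at 0 to 0.170 FPKM with 10, 6 and 10 fragments per group. In GENCODE release 29, 79.7% of the exon bases of RAD50 are also exon of AC116366.3 (same strand) or TH2LCRR (opposite strand). For NHEJ1, 65.4% are also exon of AC068946.1 (same strand). The same holds for 76.7% of XRCC3 (KLC1, on the opposite strand) and 59.1% of RAD54B (FSBP, same strand). How the study counted fragments in shared bases is not given in the sources used here, so the levels of these genes are uncertain and their low values are no sign of absent mRNA. XRCC3 rose with both siRNAs (0.53 and 0.52), and its fragments cannot be told apart from those of KLC1 where strand was not used.

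**Figure D4:**
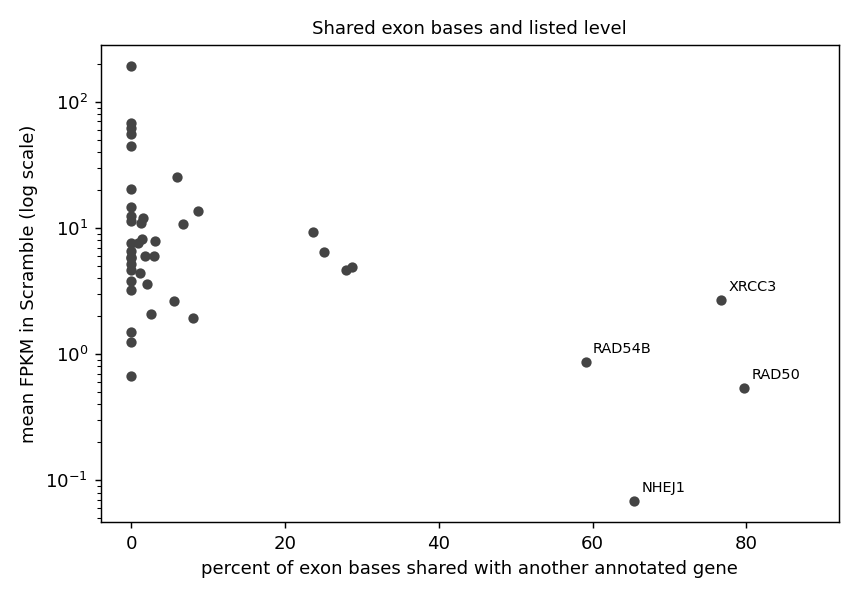
Mean FPKM with Scramble (y axis, log scale) against the percent of exon bases shared with another annotated gene (x axis) for the 43 members (dots). RAD50, NHEJ1, XRCC3 and RAD54B share 59.1% or more of their exon bases, and of these 4 genes XRCC3 alone lies above 1 FPKM.

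A wider list of 106 repair and checkpoint genes outside the members gave 98 genes tested. With Si-KDM4C#1, 27 rose and 36 fell (27.6% and 36.7%, against 31.7% and 33.9% of all genes), and with Si-KDM4C#2, 48 rose and 18 fell (49.0% and 18.4%, against 34.4% and 25.0%). CDKN1A, the p53 target that encodes the p21 inhibitor, was at 218, 205 and 199 FPKM with Scramble, 417, 476 and 500 FPKM with Si-KDM4C#1 and 48.3, 49.2 and 46.0 FPKM with Si-KDM4C#2. The siRNAs gave it log2 fold changes of 1.16 and -2.09, so the siRNAs moved it in opposite directions. MDM2, the ligase that degrades p53, followed the same pattern (0.99 and -1.67). With Si-KDM4C#1, 4 genes were called higher and 3 lower (4.08% and 3.06%, against 4.04% and 4.83% of all genes). Those called higher were CDKN1A, MAD2L2 (1.00), a shieldin subunit that limits resection, the phosphatase gene CDC25A (1.14) and TELO2 (1.06), whose product stabilises the ATM and ATR kinases. Those called lower were NUCKS1 (-1.52), USP1 (-1.52), which removes ubiquitin from FANCD2, and CLSPN (-1.03), which links ATR to CHEK1. With Si-KDM4C#2, 0 were called higher (2.6% of all genes were), and CDKN1A and MDM2 were called lower (2.04%, against 2.3%). Between the siRNAs, 59 were higher with Si-KDM4C#2 and 17 lower (60.2% and 17.3%, against 35.9% and 26.5% of all genes). Called higher in that comparison were USP1 (1.66), CLSPN (1.05) and EME2 (1.00), a nuclease partner gene (3.06%, against 4.41%). MDM2 (-2.65) and CDKN1A (-3.25) were called lower (2.04%, against 2.49%). With the GC adjustment CDKN1A (0.99), MAD2L2 (0.77), TELO2 (0.72) and CLSPN (-0.87) with Si-KDM4C#1 came under the fold limit. EME2 (0.93) and CLSPN (0.94) between the siRNAs also came under it. MDM2 (1.21) and EME2 (-1.01, from -0.70 without the adjustment) with Si-KDM4C#1 came past it.

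Cell cycle genes and GC content moved beside the members. Of 54 G2/M genes, 49 rose and 2 fell with Si-KDM4C#2 (median log2 fold change 0.47), and 22 rose and 24 fell with Si-KDM4C#1 (median -0.05). Of 40 S phase genes tested outside the members, 25 rose and 6 fell with Si-KDM4C#2, and 19 rose and 13 fell with Si-KDM4C#1. Over all genes tested, 34.4% rose and 25.0% fell with Si-KDM4C#2 (median 0.06), and 31.7% rose and 33.9% fell with Si-KDM4C#1 (median -0.03). The S phase list itself holds BLM and EXO1. The summed level of the 4 listed epithelial markers was 330 to 353 FPKM with Scramble, 290 to 309 after Si-KDM4C#1 and 240 to 254 after Si-KDM4C#2. Of these 4, CDH1 and KRT19 stayed under 1 FPKM in every library, so the sum rests on KRT8 and KRT18. The 6 mesenchymal markers, of which COL1A2 stayed under 1 FPKM, summed to 102 to 112, 119 to 121 and 148 to 151 FPKM. Members of these sums differed, and KRT18 rose (0.21) and KRT8 fell (-0.52) with Si-KDM4C#1, COL3A1 rose with both siRNAs (0.47 and 0.99), FN1 fell with both (-1.02 each), and VIM stood at -0.03 with Si-KDM4C#1. The 5 listed blood and endothelial markers were all under 1 FPKM. The part of these genes in the changes of the repair genes was not tested. Across the 40 members, Spearman's rho of the fold change with exon GC content was 0.32 (Si-KDM4C#1) and 0.33 (Si-KDM4C#2), beside 0.33 and 0.32 over all genes (a description over genes of the same libraries). With the GC adjustment the median of the members was 0.14 and 0.15, and 8 members in place of 13 fell with Si-KDM4C#1. In bulk RNA, a change in the share of cells in a cycle phase and a change of mRNA per cell cannot be told apart.

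CCAAT stood in a window of 19 of the 37 members matched. Of the 13 members that rose with both siRNAs, 8 had it (H2AFX, CHEK2, RNF8, BLM, BRCA1, XRCC3, RAD54L and FANCA). Of the 4 that fell with both, LIG4 had it. Of the 6 with a window that fell with Si-KDM4C#1 and did not pass the test with Si-KDM4C#2, 4 had it (ATM, CHEK1, RIF1 and PALB2). Of the other 11 members tested that had a window, 6 had it, and of the 3 that did not pass the filter 0 had it. CCAAT was thus found beside members of both directions. These counts are per gene, some with several windows, and no such share was taken over all genes.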

How the data were processed

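Huh7 cells received Scramble, Si-KDM4C#1 or Si-KDM4C#2 by transfection, and total RNA was taken after 48 h. Libraries were made with the NEB Next Ultra kit and read in pairs by an Illumina NovaSeq. Per library, the authors deposited a list of FPKM values, and the submitters' processing notes name FastQC 0.11.5, HISAT2 2.1.0, StringTie 1.3.3b, featureCounts, DESeq 1.28.0 and GRCh38, without saying which tool made the values or whether strand was used.

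Log2(FPKM + 1) values of the 14363 of 32906 genes that averaged 1 FPKM or more in any group were compared in limma 3.58.1 (R 4.3.3, limma-trend), with all 9 libraries in 1 fit and no covariate. Weaker genes were read from such a fit of all 32906 genes. FDR is the Benjamini-Hochberg value, and calls needed an FDR under 0.05 and a fold change of FPKM + 1 over 2. FPKM times the exon length in GENCODE release 29 gave whole fragments (within 0.05) in all libraries for 32080 genes. These gave the depth. With 1 kb of exon, 3 fragments (the floor, for counting error only) are worth 0.166 to 0.206 FPKM. Chi-square per degree of freedom between libraries of a group was 2.56 to 5.75, more than sampling noise gives, and all 9 were counted separately.

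Values per library are given for H2AFX, the members called and the 3 highest and 3 lowest members of each comparison. Members called in the wider lists are named. KDM4C is given as the check of the labels. The genes, lists and motifs were chosen with earlier results of these data known. The cell cycle lists are those of Seurat 5.3.0 without the members. Alternatives were a pseudocount of 0.1, quantile normalization, no filter, a replicate block, 1 FPKM or more in every library (11171 genes), only the 6 libraries of a comparison, limma voom on recovered fragments (none for CHEK2 and BLM, at least 10 in at least 3 libraries, 16010 genes), no fold limit and leaving out each library. A GC adjustment by lowess within each library (14343 genes, span 0.3) was added with the data already seen. Tested on simulated data with limma-trend (13538 genes), 84 and 81 of 100 genes changed 1.5-fold with Si-KDM4C#1 and Si-KDM4C#2 had an FDR under 0.05, and 94 and 97 of 100 genes changed 3-fold were called. Unchanged genes gave 12 and 6 false passes at this FDR. In the simulation few genes changed, none of the weakest, and the spread was fixed. Most genes passed the test in the real data, so these shares may not hold there. Promoter windows are from RefSeq (GRCh38.p14). No protein or siRNA sequence is shown here. Some genes are not reported here.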

Additional observations from a re-analysis of the deposited data

Results flagged for a closer look

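RBBP8 differed between the siRNAs. It fell with Si-KDM4C#1 and overlapped with Scramble with Si-KDM4C#2, and the difference between the siRNAs was 1.63 on the log2 scale in limma-trend (standard error 0.077, adjusted p = 1.58e-07). All 3 libraries with Si-KDM4C#2 lay above all 3 with Si-KDM4C#1. Without any 1 library the difference stayed between 1.55 and 1.69, and with the GC adjustment it was 1.47.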

How the results depend on the processing

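Counts of called members did not move with no filter, with 1 FPKM in every library, with the 6 libraries alone or with the replicate block, and moved with the other settings. With Si-KDM4C#1, the members called higher (0) were 1 with quantile normalization, 2 with a pseudocount of 0.1, 3 with limma voom on recovered fragments and 2 with the GC adjustment, and those called lower (2) were 3 with quantile normalization and with limma voom, 4 with the pseudocount and 1 with the GC adjustment. With Si-KDM4C#2, the members called higher (1) were 0 with the GC adjustment, and those called lower (0) were 1 each with quantile normalization, the pseudocount and limma voom. Between the siRNAs, the members called higher (1) were 2 with the pseudocount and with limma voom, and those called lower (0) were 1 with the pseudocount, 2 with limma voom and 1 with the GC adjustment. With the FDR alone, the counts were 19 higher and 13 lower, 18 higher and 7 lower, and 16 higher and 6 lower.

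The median log2 fold change of the members with Si-KDM4C#1 (0.081) was -0.001 with no filter and 0.143 with the GC adjustment. With Si-KDM4C#2 (0.105) it was 0.012 with quantile normalization, 0.047 with limma voom and 0.148 with the GC adjustment, and between the siRNAs (0.154) it was 0.066, 0.044 and 0.056. Leaving out 1 library kept these medians at 0.062 to 0.096, 0.096 to 0.117 and 0.132 to 0.182. It gave 0 to 1 members called higher with Si-KDM4C#1 (XRCC4 without Scramble replicate 2) and 0 to 1 called lower with Si-KDM4C#2 (LIG4, -1.04, without Scramble replicate 1). Where a value changed, the cause was not tested.

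Of 555 values of the named members under an alternative, 529 kept their direction and their call at both limits together, 2 lost a call, 19 gained one and 5 changed sign. At the FDR limit alone, 13 values lost the test (RNF168 with Si-KDM4C#1, RAD51D with Si-KDM4C#2 and LIG4 between the siRNAs) and 10 gained it (XRCC5 with Si-KDM4C#2 and XRCC4 between the siRNAs). The 2 calls lost at both limits together were H2AFX with Si-KDM4C#2 and LIG4 with Si-KDM4C#1, both under the GC adjustment. Both missed the fold limit alone, with adjusted p in limma-trend of 3.21e-07 (H2AFX) and 1.39e-05 (LIG4). With Si-KDM4C#2, LIG4 gained a call with limma voom (-1.27). Calls gained with Si-KDM4C#1 were XRCC4 (1.05 with quantile normalization, 1.32 with the pseudocount, 1.45 with limma voom, 1.24 with the GC adjustment), RAD51C (1.04 with limma voom, 1.07 with the GC adjustment), RAD51D (1.03 with the pseudocount, 1.14 with limma voom) and TOPBP1 (-1.03 with quantile normalization, and also with the pseudocount). The changes of sign were in values near 0: RBBP8 with Si-KDM4C#2 (0.06 with the GC adjustment, 0.01 without Scramble replicate 3, within -0.08 to 0.01 when any 1 library was left out), RAD51C and XRCC5 with Si-KDM4C#2 (0.02 each with the GC adjustment) and BLM between the siRNAs (-0.05 with the GC adjustment). The median of all genes between the siRNAs (0.082) was 0.103 with the pseudocount and -0.002 with quantile normalization.

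Libraries with the same replicate number did not deviate together (mean correlation 0.0162 over 9 pairs, lowest -0.0461, highest 0.0546). With the replicate number as a block, the members called stayed at 0 higher and 2 lower with Si-KDM4C#1, 1 and 0 with Si-KDM4C#2, and 1 and 0 between the siRNAs.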
